A study of Mus musculus with 6 samples.

Results

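Common dendritic cell progenitors (CDPs) that carry the receptor CD115 were compared by whether they also carried the surface antigen Ly6C. The comparison took 4 of the 6 RNA sequencing libraries of the study, 2 sorted as CD115+Ly6C+ and 2 sorted as CD115+Ly6C-. Libraries were assigned to the subsets by their sort labels, while the comparison itself was chosen with earlier results of these data known. All cells came from the bone marrow of wildtype C57BL/6 mice aged 6 to 8 weeks, with no treatment named. The remaining 2 libraries, sorted as CD115-Ly6C-, were on neither side of the comparison. They entered the estimate of spread between libraries, the filter on low counts and the scaling. Their levels are given only for a few genes under other observations. The labels do not say whether the 2 libraries sharing a sort gate came from different animals or different sorts, so p-values measure only the spread between these libraries, which may be technical. The labels name CD115 and Ly6C and no other antigen of the sorting gate. In bulk RNA, fewer cells expressing a gene and less of its RNA per cell cannot be told apart.

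CDPs are bone marrow cells that give rise to conventional dendritic cells, which present antigen to T cells, and to plasmacytoid dendritic cells, which release type I interferon. Csf1r encodes CD115, through which macrophage colony-stimulating factor acts. Ly6C is a small protein anchored to the membrane by a lipid and is carried in bone marrow by monocytes and their precursors, among other cells. It is encoded by the neighbouring genes Ly6c1 and Ly6c2.

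The 6 libraries held 17961541 to 19450329 counts, with reads in 13307 to 14127 genes. Levels are CPM, counts brought to the same library size by TMM scaling. For each gene the level in CD115+Ly6C- replicate 1 and replicate 2 comes first, and that in CD115+Ly6C+ replicate 1 and replicate 2 follows after "against". Replicate numbers name libraries and imply no order. A log2 fold change is CD115+Ly6C+ over CD115+Ly6C-, and a gene was called higher or lower when its edgeR adjusted p lay under 0.05. CPM compares 1 gene between libraries and does not rank genes of different length.

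The transcripts followed the sort labels. Ly6c2 (Entrez gene 100041546) stood at 121 and 188 CPM without surface Ly6C against 1439 and 1400.5 CPM with it (log2 fold change 3.2 with SE 0.24, and edgeR adjusted p = 0.000468). Its copy Ly6c1 was at 1.68 and 3.71 against 22.7 and 21.5 CPM (log2 fold change 3.03 with SE 0.37, and edgeR adjusted p = 0.00274). Both genes separated the subsets in the same direction, with no overlap between libraries. In the GENCODE M21 transcripts, 32.6% of the 50-base windows of the longest Ly6c2 messenger RNA also occur unchanged in Ly6c1, so the split of reads between these copies is uncertain. Csf1r (Entrez gene 12978) stood at 414 and 513 CPM in CD115+Ly6C- against 553 and 531 CPM in CD115+Ly6C+, and no difference was detected (log2 fold change 0.23 with SE 0.14, and edgeR adjusted p = 0.324).

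Besides Ly6c2, 3 genes were set as markers of the difference between the subsets. Lgals3 (Entrez gene 16854) encodes galectin-3, a sugar-binding protein abundant in macrophages. It stood at 12.4 and 25 CPM in CD115+Ly6C- against 176 and 199 CPM in CD115+Ly6C+ (log2 fold change 3.33 with SE 0.35, and edgeR adjusted p = 0.00179). Fcgr3 (Entrez gene 14131), a low-affinity receptor for IgG, stood at 5.93 and 7.27 against 30.4 and 39.9 CPM (log2 fold change 2.41 with SE 0.22, and edgeR adjusted p = 0.000987). Dntt (Entrez gene 21673), the polymerase that adds untemplated bases while antigen receptor genes are joined, went the other way, at 281 and 385 against 33.6 and 45.1 CPM (log2 fold change -3.08 with SE 0.20, and edgeR adjusted p = 0.000302). In all 3 the libraries of the subsets lay apart, and these calls, like those of Ly6c1 and Ly6c2, were kept whichever library was left out. The comparison and its markers were chosen with earlier results of these data known. These values therefore describe the markers and are no independent support for them.

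**Figure D1:**
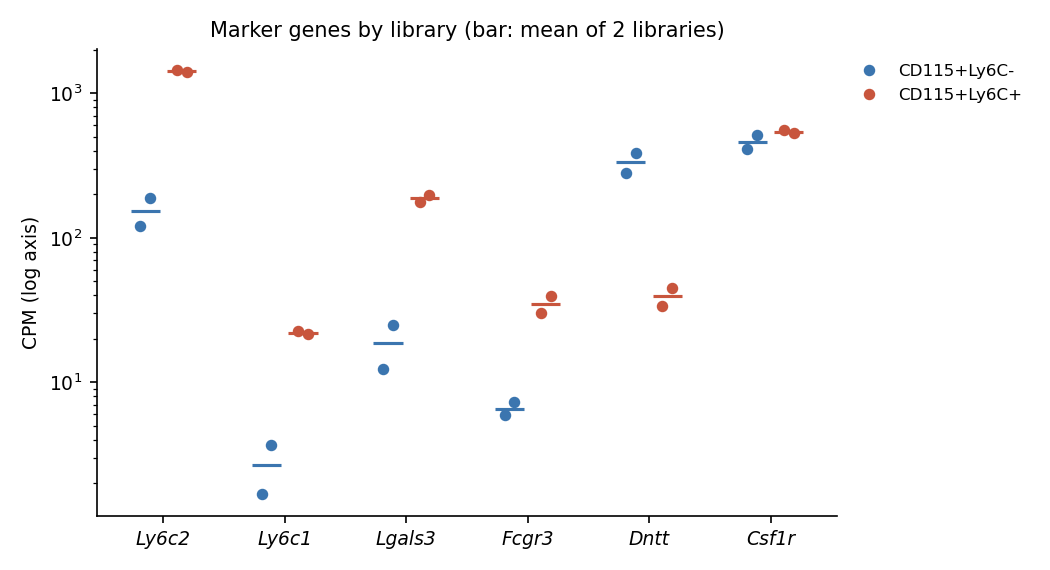
Level of 6 genes in each of the 4 CD115+ libraries, in CPM on a log axis, with 1 point per library and a bar at the mean of each subset. Ly6c1, Ly6c2, Lgals3 and Fcgr3 lie higher in both CD115+Ly6C+ libraries, Dntt lies lower, and the points of Csf1r lie close together.

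DNA just upstream of an annotated start of Ly6c2 and of these 3 genes is shown because they were set as markers. Of these 4 genes, 3 were higher in CD115+Ly6C+ and Dntt was lower. The stretches come from RefSeq promoter windows of GRCm38.p6, are written 5′ to 3′ on the strand of the gene, and leave out bases that GENCODE M21 gives as exon. Ly6c2 is at chr15:75111972-75112221 (minus strand), Lgals3 at chr14:47373610-47373812 (plus strand), Fcgr3 at chr1:171059404-171059626 (minus strand) and Dntt at chr19:41029025-41029274 (plus strand). Capitals mark matches, on either strand, to GGAAGT (bound by ETS factors such as PU.1), TTGCNNAA (C/EBP factors), the ETS-IRF composite element, CAGCTG (E proteins) or TATAAA.
Ly6c2: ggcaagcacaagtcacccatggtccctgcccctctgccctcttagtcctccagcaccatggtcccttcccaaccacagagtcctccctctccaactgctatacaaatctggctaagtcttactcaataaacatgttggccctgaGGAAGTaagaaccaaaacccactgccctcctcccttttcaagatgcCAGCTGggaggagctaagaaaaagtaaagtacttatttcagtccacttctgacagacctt
Lgals3: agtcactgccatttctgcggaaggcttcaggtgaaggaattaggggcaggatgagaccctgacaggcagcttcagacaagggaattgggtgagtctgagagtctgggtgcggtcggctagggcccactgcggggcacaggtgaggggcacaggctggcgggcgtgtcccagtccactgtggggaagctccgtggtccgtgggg
Fcgr3: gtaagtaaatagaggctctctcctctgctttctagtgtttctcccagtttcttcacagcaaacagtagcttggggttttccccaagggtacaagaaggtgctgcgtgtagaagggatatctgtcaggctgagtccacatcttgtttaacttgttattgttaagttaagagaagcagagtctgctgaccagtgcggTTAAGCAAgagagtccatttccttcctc
Dntt: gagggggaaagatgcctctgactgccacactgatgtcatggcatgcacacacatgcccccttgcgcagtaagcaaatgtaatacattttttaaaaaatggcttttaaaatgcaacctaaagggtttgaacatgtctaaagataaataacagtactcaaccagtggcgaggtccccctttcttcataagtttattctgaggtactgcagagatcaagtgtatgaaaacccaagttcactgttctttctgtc
The printed Ly6c2 stretch holds 1 match to GGAAGT and 1 to CAGCTG, the Fcgr3 stretch 1 to the reverse strand of TTGCNNAA, and the Lgals3 and Dntt stretches none. Over 27025 RefSeq windows of 300 bases, GGAAGT occurred in 24.1%, TTGCNNAA in 10.8%, the composite element in 2.79%, CAGCTG in 16.1% and TATAAA in 14.2%. A match describes letters and does not show binding. The Fcgr3 stretch precedes the start that RefSeq's windows use, which lies inside the gene's RefSeq bounds (chr1:171051169-171065915), so it is not upstream of the whole gene. The start used for Ly6c2 likewise lies inside that gene's RefSeq bounds (chr15:75108161-75112066). The last part of the Ly6c2 stretch, with the CAGCTG match, is therefore inside the gene, and the GGAAGT match lies upstream of it.

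Of 12127 genes tested, 638 were higher in CD115+Ly6C+ and 526 lower, that is 9.6% in either direction, 5.26% higher and 4.34% lower. Of these, 279 and 211 differed by at least 2-fold. Counts of calls in the gene groups below are to be read beside the shares of 5.26% higher and 4.34% lower over all genes. Over the genes tested, both CD115+Ly6C+ libraries lay above both CD115+Ly6C- libraries in 28.8% and below them in 28.4%, which is 57.2% in all. Fewer genes were called on leaving out any 1 of the 4 CD115+ libraries. Each such fit leaves 1 library in a subset and fewer degrees of freedom. The drop alone therefore does not show that calls rest on a particular library. In all, 86 higher and 84 lower genes kept their calls under each of these 4 omissions, and they are called robust below. Where a count below is followed by 4 counts "by library left out", these leave out CD115+Ly6C- replicate 1, its replicate 2, CD115+Ly6C+ replicate 1 and its replicate 2, in that order. Scaling by library totals gave 485 higher and 777 lower, with the median of all genes moved from -0.01 to -0.08.

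Short transcripts stood higher in CD115+Ly6C+. With genes split into 4 classes of like size by transcript length, the median log2 fold change was 0.22 in the shortest class, 0.00 and -0.08 in the middle classes and -0.20 in the longest. The shortest class held 339 higher and 44 lower calls, the longest 50 and 232. With each library's trend with length removed, 405 genes were higher and 306 lower. The part of RNA quality in this trend was not tested.

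**Figure D2:**
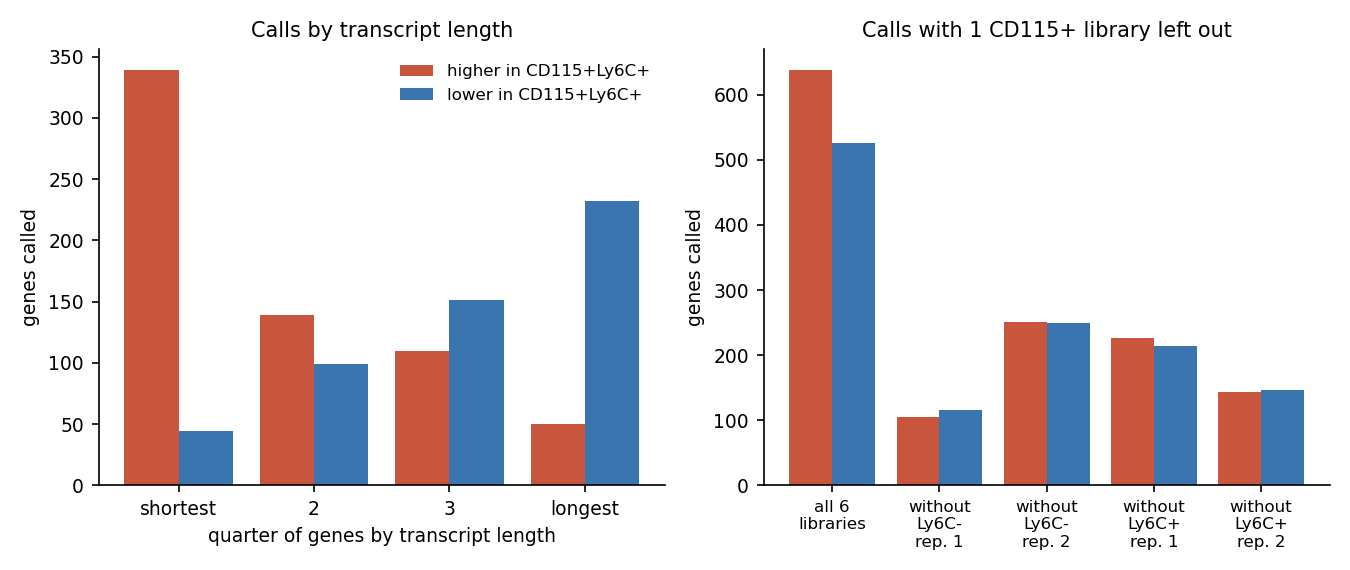
Left, number of genes called higher or lower in CD115+Ly6C+ in each of 4 classes of genes by transcript length, from 339 higher in the shortest to 232 lower in the longest. Right, number of genes called higher or lower with all 6 libraries and with each CD115+ library left out, with the fewest calls (105 and 115) without CD115+Ly6C- replicate 1.

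Among receptors for growth factors and cytokines, more genes were called lower than higher in CD115+Ly6C+, and most passed in neither direction. Of 45 such genes tested, 9 were lower and 2 higher (median log2 fold change -0.16). Il7r, the receptor chain that lymphoid progenitors need, stood at 14.4 and 13.4 CPM in CD115+Ly6C- against 1.51 and 2.16 CPM in CD115+Ly6C+ (log2 fold change -2.93 with edgeR adjusted p = 0.000398). Il1r1, the signaling receptor of interleukin 1, was at 25 and 19 against 5.63 and 5.33 CPM (log2 fold change -2.0 with edgeR adjusted p = 0.000895). The partner chains of the interleukin 18 receptor were lower together. Il18rap stood at 50.7 and 55.8 against 19 and 12.3 CPM (log2 fold change -1.76 with edgeR adjusted p = 0.0018), and Il18r1 at 3.78 and 3.02 against 0.502 and 0.778 CPM (log2 fold change -2.4 with edgeR adjusted p = 0.00817). Flt3, the receptor that supports dendritic cell formation, was at 666 and 657 against 373 and 342 CPM (log2 fold change -0.89 with edgeR adjusted p = 0.00241), and Kit, the stem cell factor receptor, at 108 and 94.9 against 58.8 and 48.9 CPM (log2 fold change -0.91 with edgeR adjusted p = 0.00599).

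In the other direction, Csf2ra, which binds granulocyte-macrophage colony-stimulating factor, stood at 19.6 and 22.1 CPM in CD115+Ly6C- against 38.8 and 57.7 CPM in CD115+Ly6C+ (log2 fold change 1.21 with edgeR adjusted p = 0.0106). Its signaling partner Csf2rb was at 74.2 and 82.4 against 95.8 and 83.7 CPM and did not pass (log2 fold change 0.20 with edgeR adjusted p = 0.32). Csf3r, the receptor of granulocyte colony-stimulating factor, had overlapping libraries, at 30.1 and 32.3 against 34.3 and 29.2 CPM (log2 fold change 0.03 with edgeR adjusted p = 0.925). Il18r1 and Kit lost their calls, at edgeR adjusted p of 0.0518 to 0.0543, on leaving out CD115+Ly6C- replicate 1. Csf2ra lost its call, at edgeR adjusted p of 0.0501 to 0.0984, on leaving out either CD115+Ly6C- library or, instead, CD115+Ly6C+ replicate 2. The count of lower cytokine receptors was 4 and 7 on leaving out replicate 1 and 2 of CD115+Ly6C-, and 7 and 7 on leaving out those of CD115+Ly6C+, and that of higher ones 0, 3, 1 and 0 by library left out.

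Receptors for chemokines and other attractants had more higher than lower calls, and most passed in neither direction. Of 27 tested, 8 were higher and 3 lower (median 0.42). Ccr2, which draws monocytes out of the marrow, stood at 231 and 248 CPM in CD115+Ly6C- against 567 and 671 CPM in CD115+Ly6C+ (log2 fold change 1.37 with edgeR adjusted p = 0.00546). Ccr1, an inflammatory chemokine receptor of myeloid cells, was at 2.83 and 5.57 against 15.2 and 14.8 CPM (log2 fold change 1.84 with edgeR adjusted p = 0.0158). Cxcr2, which guides neutrophils, was at 0.682 and 1.54 against 12.2 and 10.4 CPM (log2 fold change 3.34 with edgeR adjusted p = 0.00396). Ccr7, which guides dendritic cells and lymphocytes to lymph nodes, was lower, at 44 and 39.3 against 19.9 and 16.8 CPM (log2 fold change -1.18 with edgeR adjusted p = 0.00274). Cx3cr1, a chemokine receptor of the monocyte and dendritic lineages, stood at 103 and 108 against 162 and 115 CPM and did not pass (log2 fold change 0.39 with edgeR adjusted p = 0.159). Ccr2 lost its call, at edgeR adjusted p of 0.0656, on leaving out CD115+Ly6C- replicate 1. Ccr1 lost its call, at edgeR adjusted p of 0.0627 to 0.0748, on leaving out CD115+Ly6C- replicate 1 or, instead, either CD115+Ly6C+ library. The count of higher attractant receptors was 2 and 6 on leaving out replicate 1 and 2 of CD115+Ly6C-, and 4 and 2 on leaving out those of CD115+Ly6C+, and that of lower ones 1, 1, 2 and 3 by library left out. Among the ligands, Ccl6, a chemokine of myeloid cells, stood at 11.9 and 16.2 against 41.6 and 46.6 CPM (log2 fold change 1.65 with edgeR adjusted p = 0.00396). Il12a, a chain of interleukin 12, was lower at 92.5 and 80.4 against 32.9 and 36.7 CPM (log2 fold change -1.31 with edgeR adjusted p = 0.00106).

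Among genes of transcription factors, several main regulators of these lineages did not pass the test. Irf8, which dendritic cell and monocyte development needs, stood at 2318 and 2715 CPM in CD115+Ly6C- against 2673 and 2479 CPM in CD115+Ly6C+, with overlapping libraries (log2 fold change 0.03 with SE 0.12, and edgeR adjusted p = 0.88). Zeb2, Id2, Runx1 and Ikzf1 had log2 fold changes of -0.13, 0.11, -0.13 and -0.17 and did not pass (edgeR adjusted p 0.475, 0.712, 0.54 and 0.579). Klf4, a factor of monocyte differentiation, stood at 10.7 and 14 against 34.4 and 30.3 CPM, apart between the subsets but short of the threshold (log2 fold change 1.39 with SE 0.41, and edgeR adjusted p = 0.0669). It passed with DESeq2 (adjusted p = 0.00809), with the 4 CD115+ libraries alone (edgeR adjusted p = 0.00256) and with no filter on low counts (0.0017). Notch1, a receptor that favours lymphoid fates, was at 60.0 and 80.8 against 47.7 and 32.8 CPM and also fell short (log2 fold change -0.81 with edgeR adjusted p = 0.0536). It passed with library totals (0.049), with the 4 CD115+ libraries alone (0.0371), with no filter (0.00193) and with DESeq2 (0.00511). Leaving out CD115-Ly6C- replicate 1 or replicate 2 gave edgeR adjusted p of 0.00286 and 0.00391 for Klf4 and 0.038 and 0.0421 for Notch1.

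Of 48 myeloid transcription factor genes tested, 7 were higher and 2 lower, or 4 and 1 with the length trend removed. Tfec, a relative of the lysosome regulator Tfeb, was the 1 robust higher gene among them, at 5.61 and 8.44 against 25.4 and 33.1 CPM (log2 fold change 2.06 with SE 0.25, and edgeR adjusted p = 0.00277). Of the genes of C/EBP factors, which drive granulocyte and monocyte programs, 3 were called higher. Cebpa was at 7.97 and 9.66 against 24.3 and 21 CPM (log2 fold change 1.36 with edgeR adjusted p = 0.00946), Cebpd at 16.9 and 15 against 39.2 and 41.7 CPM (log2 fold change 1.34 with edgeR adjusted p = 0.0112), and Cebpe, needed for secondary granules, at 1.26 and 3.4 against 9.42 and 8.62 CPM (log2 fold change 1.95 with edgeR adjusted p = 0.0394). Cebpb was near 0 in all 4 libraries, at 0.157 and 0.318 against 1.62 and 0.719 CPM, and did not pass. Irf5, which drives inflammatory cytokine genes, stood at 39.8 and 61.6 against 105 and 104 CPM (log2 fold change 1.04 with edgeR adjusted p = 0.0161). Irf5 overlaps Tnpo3 and Cebpd overlaps Spidr, with which reads may be shared. Spi1, which encodes PU.1, was at 283 and 309 against 408 and 412 CPM (log2 fold change 0.47 with edgeR adjusted p = 0.0423).

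Cebpa lost its call, at edgeR adjusted p of 0.0516 to 0.0824, on leaving out CD115+Ly6C- replicate 1 or, instead, CD115+Ly6C+ replicate 1. Cebpd lost its call, at edgeR adjusted p of 0.0614 to 0.0748, on leaving out either CD115+Ly6C- library or, instead, CD115+Ly6C+ replicate 2. Cebpe lost its call, at edgeR adjusted p of 0.126 to 0.161, on leaving out CD115+Ly6C- replicate 1 or, instead, either CD115+Ly6C+ library, and with the gene length trend removed and a term for the replicate number (0.0518 to 0.061). Irf5 lost its call, at edgeR adjusted p of 0.0603 to 0.069, on leaving out CD115+Ly6C- replicate 1 or, instead, either CD115+Ly6C+ library. Spi1 lost its call, at edgeR adjusted p of 0.101 to 0.22, on leaving out any 1 of the 4 CD115+ libraries, and with the gene length trend removed, limma on log2(FPKM + 1) and library totals as scaling (0.0538 to 0.123). The count of higher myeloid factor genes was 1 and 5 on leaving out replicate 1 and 2 of CD115+Ly6C-, and 3 and 2 on leaving out those of CD115+Ly6C+, and that of lower ones 0, 1, 1 and 1 by library left out.

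Of 25 dendritic cell factor genes, 1 was higher and 3 were lower, against 5.26% of all genes called higher and 4.34% lower. Zbtb46, a factor of conventional dendritic cells and their committed precursors, stood at 0.734 and 1.17 against 5.52 and 4.73 CPM (log2 fold change 2.42 with edgeR adjusted p = 0.018). Zbtb46 overlaps Abhd16b, Lime1 and Zgpat, with which reads may be shared. Tcf4, the E protein that plasmacytoid dendritic cells depend on, was lower at 187 and 141 against 88.6 and 68.4 CPM (log2 fold change -1.06 with edgeR adjusted p = 0.0138). Myc, a growth regulator, was lower at 236 and 199.8 against 137 and 139 CPM (log2 fold change -0.66 with edgeR adjusted p = 0.0121). Batf3, a factor of type 1 conventional dendritic cells, stood at 0.0525 and 0.424 against 1.06 and 1.08 CPM and did not pass (log2 fold change 2.14 with edgeR adjusted p = 0.149; 0.0295 with limma on log2(FPKM + 1)). Zbtb46 lost its call, at edgeR adjusted p of 0.0507 to 0.12, on leaving out any 1 of the 4 CD115+ libraries. Tcf4 lost its call, at edgeR adjusted p of 0.0824 to 0.104, on leaving out CD115+Ly6C- replicate 1 or, instead, CD115+Ly6C+ replicate 2. Myc lost its call, at edgeR adjusted p of 0.0625 to 0.0854, on leaving out CD115+Ly6C- replicate 1 or, instead, either CD115+Ly6C+ library. The lower dendritic factor genes numbered 0 and 2 on leaving out replicate 1 and 2 of CD115+Ly6C-, and 1 and 0 on leaving out those of CD115+Ly6C+, and the higher ones 0, 0, 0 and 0 by library left out.

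Several regulators of lymphoid and stem cell programs were called lower. Of 30 lymphoid factor and recombinase genes, 4 were lower and 1 was higher (median -0.25), with 0, 0, 0 and 0 higher by library left out. Rag2, part of the recombinase of antigen receptor genes, stood at 22.4 and 14.2 CPM in CD115+Ly6C- against 0.948 and 1.68 CPM in CD115+Ly6C+ (log2 fold change -3.81 with edgeR adjusted p = 0.000895). Rag2 overlaps Iftap, and the strand of the reads is not given, so its reads may be shared. Satb1, a chromatin organizer of lymphoid priming, was at 108 and 87.5 against 44.9 and 43.8 CPM (log2 fold change -1.14 with edgeR adjusted p = 0.00237), and Tox, a factor of T and innate lymphoid development, at 3.93 and 3.55 against 0.223 and 0.599 CPM (log2 fold change -3.19 with edgeR adjusted p = 0.00274). All 3 calls were robust.

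Of 28 stem and early progenitor factor genes, 0 were higher and 7 lower with 1 of the lower calls robust (median -0.59, or -0.56 with genes at 0 counts in a subset set to a floor of 3 counts). Hoxa9, a homeobox gene of immature progenitors, stood at 51.2 and 45.6 against 21.6 and 23.7 CPM (log2 fold change -1.1 with edgeR adjusted p = 0.00286). Its cofactor Meis1 was at 22.3 and 28.4 against 15.1 and 13.9 CPM (log2 fold change -0.81 with edgeR adjusted p = 0.0198), and Gfi1b, a repressor needed for red cells and platelets, at 4.72 and 4.51 against 0.780 and 1.38 CPM (log2 fold change -2.1 with edgeR adjusted p = 0.0093). Myb, needed for progenitor growth, stood at 131 and 97.5 against 99.9 and 94.7 CPM and did not pass (log2 fold change -0.23 with edgeR adjusted p = 0.441). Meis1 lost its call, at edgeR adjusted p of 0.0632 to 0.0991, on leaving out CD115+Ly6C- replicate 2 or, instead, either CD115+Ly6C+ library. Gfi1b lost its call, at edgeR adjusted p of 0.0549, on leaving out CD115+Ly6C- replicate 1. The lower early progenitor factors numbered 2 and 3 on leaving out replicate 1 and 2 of CD115+Ly6C-, and 5 and 2 on leaving out those of CD115+Ly6C+.

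**Figure D3:**
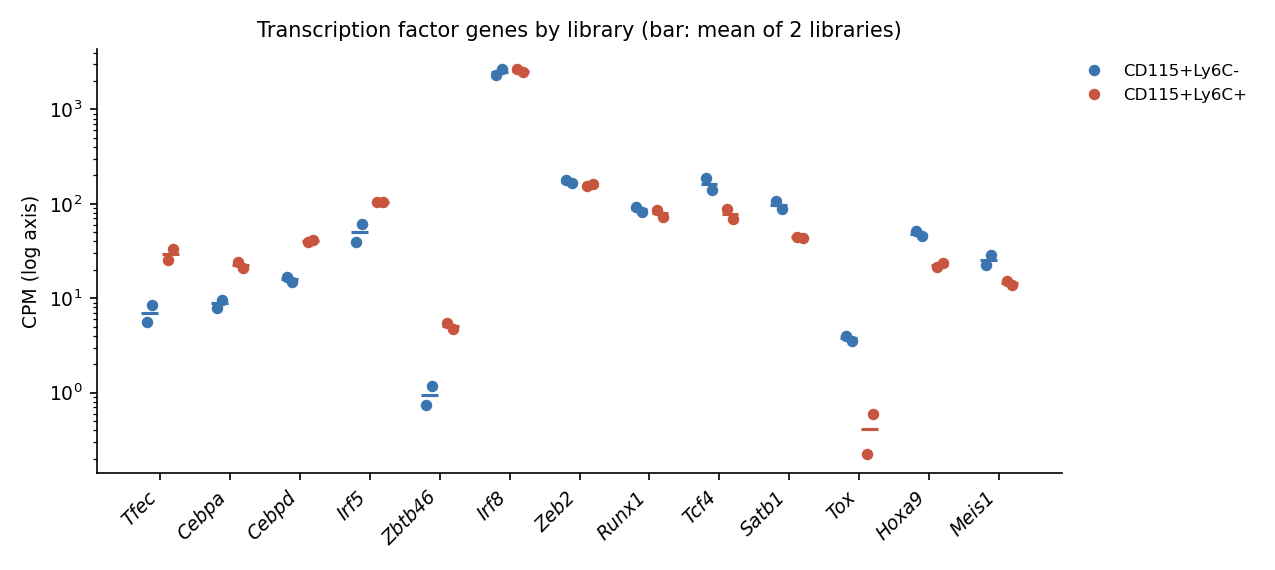
Transcription factor genes in the 4 CD115+ libraries, in CPM on a log axis, with 1 point per library. Tfec, Cebpa, Cebpd, Irf5 and Zbtb46 lie higher in both CD115+Ly6C+ libraries, Tcf4, Satb1, Tox, Hoxa9 and Meis1 lie lower, and the points of Irf8, Zeb2 and Runx1 overlap or lie close together.

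Kinases and adaptors of immune signaling went in both directions. Lck, the kinase that starts T cell receptor signaling, stood at 27.1 and 29.1 CPM in CD115+Ly6C- against 5.18 and 3.95 CPM in CD115+Ly6C+ (log2 fold change -2.61 with SE 0.16, and edgeR adjusted p = 0.000302). The libraries of the subsets lay apart, and the call was robust.

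Among 52 signaling genes of lymphocytes and their myeloid counterparts, 11 were lower and 5 higher (median -0.11). Blnk, the adaptor downstream of the B cell receptor, was at 25.4 and 24.2 against 4.4 and 5.27 CPM (log2 fold change -2.36 with edgeR adjusted p = 0.000398). Sla2, an adaptor that damps receptor signaling in lymphocytes, was at 4.3 and 4.35 against 1.0 and 0.958 CPM (log2 fold change -2.13 with edgeR adjusted p = 0.00241). Prkcq, the protein kinase C of T cell activation, fell to near 0, at 1.73 and 2.28 against 0.0557 and 0.180 CPM (log2 fold change -4.04 with edgeR adjusted p = 0.00366). In the myeloid direction Dok3, an adaptor that restrains kinase signaling, was at 49.7 and 65.9 against 118 and 122 CPM (log2 fold change 1.05 with edgeR adjusted p = 0.0049). Pik3cg, the phosphoinositide kinase driven by chemokine receptors, was lower at 202 and 189 against 125 and 115 CPM (log2 fold change -0.70 with edgeR adjusted p = 0.00636), and Zap70, which Lck activates, at 4.51 and 6.26 against 1.62 and 1.38 CPM (log2 fold change -1.84 with edgeR adjusted p = 0.0102). Pik3cg lost its call, at edgeR adjusted p of 0.0532 to 0.0557, on leaving out CD115+Ly6C- replicate 1 or, instead, CD115+Ly6C+ replicate 2. Zap70 lost its call, at edgeR adjusted p of 0.0619, on leaving out CD115+Ly6C+ replicate 2. Higher and lower members numbered 2 and 5 on leaving out replicate 1 of CD115+Ly6C-, 2 and 6 for its replicate 2, 2 and 7 for replicate 1 of CD115+Ly6C+ and 2 and 5 for its replicate 2.

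Paired receptors, which come as activating and inhibitory forms on myeloid cells, had many higher calls. Of 35 tested, 17 were higher and 1 lower (median 1.10), with 7 robust members. The inhibitory Pirb stood at 11 and 14.2 CPM in CD115+Ly6C- against 48.7 and 44 CPM in CD115+Ly6C+ (log2 fold change 1.88 with edgeR adjusted p = 0.00127). Its activating relatives moved the same way. Pira2 was at 9.49 and 9.81 against 43.3 and 46.2 CPM (log2 fold change 2.21 with edgeR adjusted p = 0.00207), Pira6 at 2.94 and 3.45 against 14.2 and 14.3 CPM (log2 fold change 2.15 with edgeR adjusted p = 0.00396), and Pira1 at 2.52 and 4.14 against 15.6 and 15.4 CPM (log2 fold change 2.22 with edgeR adjusted p = 0.00546). Reads of these near-identical genes may be divided wrongly between them.

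Lair1, an inhibitory receptor for collagen, stood at 46.5 and 44.8 against 90.1 and 105 CPM (log2 fold change 1.1 with edgeR adjusted p = 0.00366), and Trem3, an activating receptor, at 2.05 and 4.62 against 21.9 and 21.7 CPM (log2 fold change 2.71 with edgeR adjusted p = 0.00444). Tyrobp encodes DAP12, the adaptor through which many activating receptors signal, and stood at 393 and 501 against 962 and 959 CPM (log2 fold change 1.1 with edgeR adjusted p = 0.00241). Fcer1g, the corresponding adaptor of Fc receptors, was at 345 and 357 against 542 and 636 CPM (log2 fold change 0.75 with edgeR adjusted p = 0.0171). Sirpa, which binds CD47, was at 73.4 and 86.1 against 128 and 139 CPM (log2 fold change 0.74 with edgeR adjusted p = 0.00933). The 1 lower member, Siglech, a receptor of plasmacytoid dendritic cells and their precursors, stood at 74.5 and 88.7 against 62.4 and 50.9 CPM (log2 fold change -0.53 with edgeR adjusted p = 0.0471). Fcer1g lost its call, at edgeR adjusted p of 0.0754 to 0.121, on leaving out either CD115+Ly6C- library or, instead, CD115+Ly6C+ replicate 2, and with the gene length trend removed (0.156). Sirpa lost its call, at edgeR adjusted p of 0.0623 to 0.0789, on leaving out CD115+Ly6C- replicate 1 or, instead, CD115+Ly6C+ replicate 2. Siglech lost its call, at edgeR adjusted p of 0.0594 to 0.204, on leaving out any 1 of the 4 CD115+ libraries or, instead, either CD115-Ly6C- library, and with the gene length trend removed, the 4 CD115+ libraries alone and a term for the replicate number (0.0581 to 0.069). Higher paired receptors numbered 8 and 13 on leaving out replicate 1 and 2 of CD115+Ly6C-, and 10 and 8 on leaving out those of CD115+Ly6C+, and lower ones 0, 0, 0 and 0 by library left out.

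Of 10 Fc receptor genes tested, 5 were higher and 0 lower, with Fcgr3 and Fcgrt robust, and with the length trend removed 2 were higher. Fcgrt, the receptor that recycles IgG and albumin, stood at 25.7 and 31 against 74.1 and 98 CPM (log2 fold change 1.6 with edgeR adjusted p = 0.00274). Fcgr2b, the inhibitory IgG receptor, was at 65.9 and 63.7 against 87.4 and 107 CPM (log2 fold change 0.59 with edgeR adjusted p = 0.041). Of 24 C-type lectin genes, 9 were higher and 0 lower (median 1.05). Clec5a, a DAP12-coupled receptor of myeloid cells, stood at 4.51 and 6.58 against 29.8 and 34.2 CPM (log2 fold change 2.53 with edgeR adjusted p = 0.00106). Cd209a, a relative of DC-SIGN on monocyte-derived and type 2 dendritic cells, stood at 14.4 and 11.8 against 59.8 and 94.5 CPM (log2 fold change 2.56 with edgeR adjusted p = 0.00106). Clec7a, the receptor for fungal glucans, was at 22.2 and 31 against 92.8 and 137 CPM (log2 fold change 2.11 with edgeR adjusted p = 0.0057). Fcgr2b lost its call, at edgeR adjusted p of 0.0525 to 0.19, on leaving out any 1 of the 4 CD115+ libraries, and with the gene length trend removed (0.0847). Clec7a lost its call, at edgeR adjusted p of 0.0687, on leaving out CD115+Ly6C- replicate 1. Higher Fc receptors and lectins numbered 2 and 4 on leaving out replicate 1 of CD115+Ly6C-, 2 and 5 for its replicate 2, 3 and 6 for replicate 1 of CD115+Ly6C+ and 2 and 5 for its replicate 2.

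Most monocyte genes were higher. Of 36 tested, 22 were higher and 0 lower, with a median of 1.40 and 9 robust members, against 5.26% of all genes called higher. Ly6c2, a member, encodes the sorted protein. Plbd1, a phospholipase-like protein of granules and lysosomes, stood at 2.99 and 7.32 CPM in CD115+Ly6C- against 39.2 and 42.2 CPM in CD115+Ly6C+ (log2 fold change 2.98 with edgeR adjusted p = 0.00241). Tgfbi, a secreted adhesion protein, was at 3.57 and 3.77 against 18.1 and 17.7 CPM (log2 fold change 2.28 with edgeR adjusted p = 0.00176), and Emilin2, a matrix glycoprotein, at 16.4 and 14.5 against 40.6 and 42.5 CPM (log2 fold change 1.43 with edgeR adjusted p = 0.00241). F13a1, a coagulation factor chain of monocytes, was abundant in both subsets, at 1415 and 1294 against 2544 and 3045 CPM (log2 fold change 1.04 with edgeR adjusted p = 0.0222). Fn1, which encodes fibronectin, stood at 1.78 and 5.99 against 22.4 and 22.7 CPM (log2 fold change 2.53 with edgeR adjusted p = 0.0143).

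Among members of the Ms4a membrane protein family, these were higher: Ms4a4c at 92.3 and 78.5 against 197 and 292 CPM (log2 fold change 1.52 with edgeR adjusted p = 0.00513) and Ms4a6d at 1.63 and 2.71 against 8.47 and 12.8 CPM (log2 fold change 2.29 with edgeR adjusted p = 0.0117). Reads may be shared between these related genes. Cd14, the lipopolysaccharide co-receptor of monocytes, stood at 1.52 and 6.68 against 10.4 and 20.5 CPM and did not pass (log2 fold change 1.91 with edgeR adjusted p = 0.103; 0.0129 with a term for the replicate number and 0.00494 with no filter), and Itgam, which encodes CD11b, overlapped at 38.2 and 49.1 against 46 and 38 CPM (log2 fold change -0.06 with edgeR adjusted p = 0.853). F13a1 lost its call, at edgeR adjusted p of 0.104 to 0.126, on leaving out either CD115+Ly6C- library or, instead, CD115+Ly6C+ replicate 2. Fn1 lost its call, at edgeR adjusted p of 0.0523 to 0.0643, on leaving out either CD115+Ly6C+ library. Ms4a4c lost its call, at edgeR adjusted p of 0.0507, on leaving out CD115+Ly6C- replicate 2. Ms4a6d lost its call, at edgeR adjusted p of 0.0837 to 0.0859, on leaving out CD115+Ly6C- replicate 1 or, instead, CD115+Ly6C+ replicate 2. Higher monocyte genes numbered 12 and 17 on leaving out replicate 1 and 2 of CD115+Ly6C-, and 19 and 15 on leaving out those of CD115+Ly6C+.

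S100 and annexin genes encode calcium-binding proteins. Of 9 S100 genes tested, 7 were higher and 0 lower (median 1.06), or 5 and 0 with the length trend removed (median 0.69). S100a4 stood at 15.1 and 26.8 against 179.8 and 139.8 CPM (log2 fold change 2.93 with edgeR adjusted p = 0.000766), S100a6 at 20.9 and 29.5 against 93.7 and 111 CPM (log2 fold change 2.02 with edgeR adjusted p = 0.00146), and S100a10, the partner of annexin A2, at 264 and 329 against 627 and 608 CPM (log2 fold change 1.06 with edgeR adjusted p = 0.00241). These 3 were robust. S100a8 and S100a9 were not, and stood higher in replicate 2 than in replicate 1 of CD115+Ly6C-. S100a8 was at 62.1 and 246 against 1321 and 1328 CPM (log2 fold change 3.1 with edgeR adjusted p = 0.0156). S100a9 was at 26.2 and 125 against 824 and 633 CPM (log2 fold change 3.27 with edgeR adjusted p = 0.0211). Of 14 annexin and galectin genes, 7 were higher and 1 was lower (lower 0, 0, 0 and 0 by library left out). Anxa2 stood at 233 and 247 against 538 and 624 CPM (log2 fold change 1.28 with edgeR adjusted p = 0.00244), and Anxa1, which limits inflammation, at 109.8 and 136 against 339 and 467 CPM (log2 fold change 1.71 with edgeR adjusted p = 0.00143). Lgals1, which encodes galectin-1, was at 1054 and 1145 against 1906 and 1928 CPM (log2 fold change 0.80 with edgeR adjusted p = 0.00546), whereas Lgals9, which encodes galectin-9, was lower at 376 and 363 against 278 and 275 CPM (log2 fold change -0.42 with edgeR adjusted p = 0.0356). Havcr2, which encodes TIM-3, a receptor reported to bind galectin-9, was also lower, at 20.6 and 14.5 against 4.35 and 2.63 CPM (log2 fold change -2.33 with edgeR adjusted p = 0.00348). Lgals1 lost its call, at edgeR adjusted p of 0.0562, on leaving out CD115+Ly6C- replicate 1. Lgals9 lost its call, at edgeR adjusted p of 0.0544 to 0.163, on leaving out any 1 of the 4 CD115+ libraries or, instead, either CD115-Ly6C- library, and with the 4 CD115+ libraries alone and a term for the replicate number (0.0509 to 0.0545). Higher S100 genes and higher annexin and galectin genes numbered 4 and 3 on leaving out replicate 1 of CD115+Ly6C-, 6 and 4 for its replicate 2, 6 and 6 for replicate 1 of CD115+Ly6C+ and 4 and 4 for its replicate 2.

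**Figure D4:**
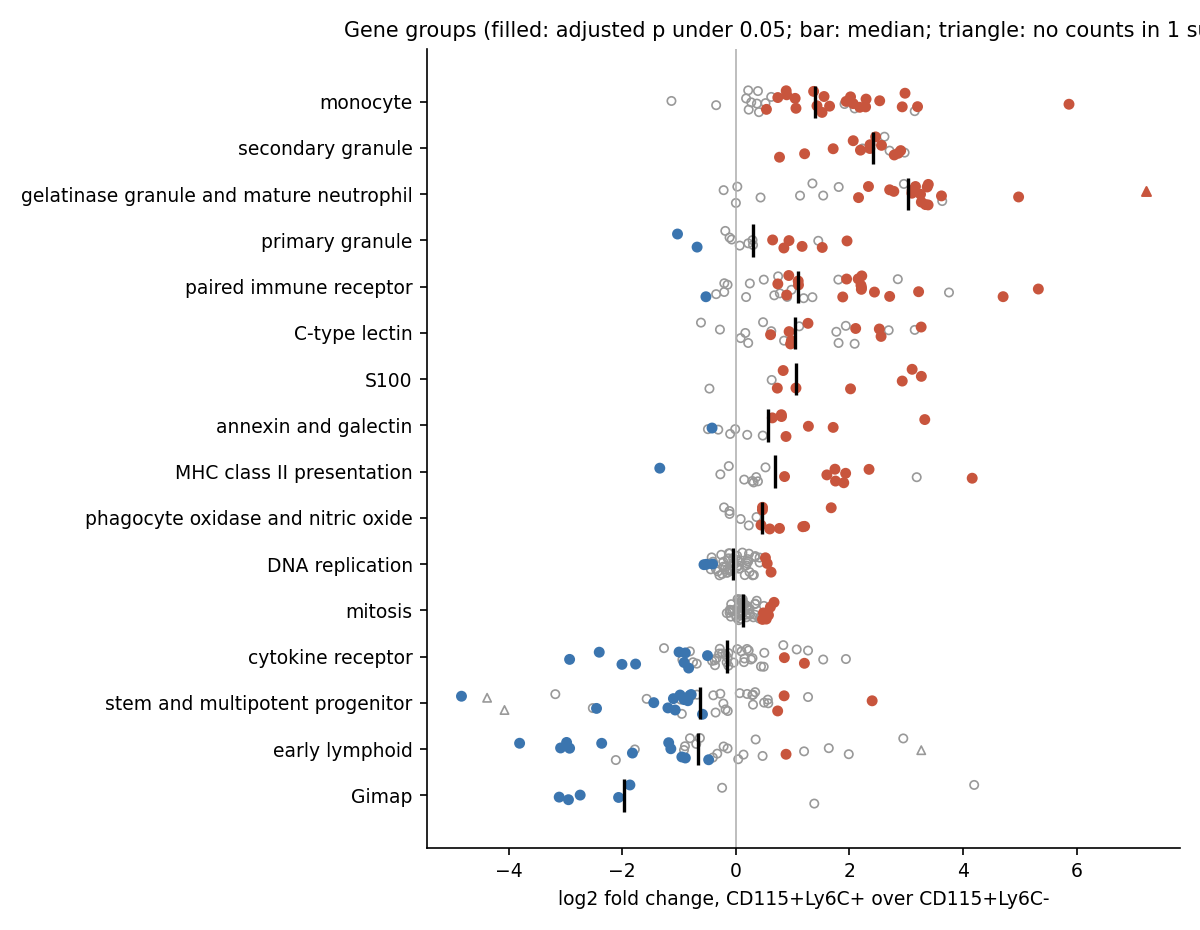
Log2 fold change (CD115+Ly6C+ over CD115+Ly6C-) of every tested member of 16 gene groups, with 1 point per gene a bar at the median and triangles for genes with no counts in 1 subset. Filled points passed the test, as 22 of 36 monocyte genes did upward and 11 of 32 early lymphoid genes downward, while the medians of the DNA replication and mitosis groups are -0.05 and 0.12.

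Granule genes of neutrophils are switched on in stages, from primary granules in promyelocytes to secondary and then gelatinase granules in later cells. Of 16 primary granule genes tested, 6 were higher and 2 lower (median 0.30). Prtn3, which encodes proteinase 3, stood at 233 and 267 against 544 and 579 CPM (log2 fold change 1.17 with edgeR adjusted p = 0.00274). Ctsg, which encodes cathepsin G, stood at 568 and 602 against 1068 and 1170.3 CPM (log2 fold change 0.94 with edgeR adjusted p = 0.00285). Ap3s1, a subunit of an adaptor that sorts cargo to granules, stood at 179.7 and 179.5 against 314 and 332 CPM (log2 fold change 0.85 with edgeR adjusted p = 0.0029). It overlaps Atg12, so its reads may be shared. Ctsc, which activates granule proteases, was at 118 and 117 against 165 and 203 CPM (log2 fold change 0.65 with edgeR adjusted p = 0.0182), and Ms4a3, a marker of granulocyte and monocyte progenitors, at 3.41 and 7.43 against 17.1 and 25 CPM (log2 fold change 1.96 with edgeR adjusted p = 0.0211). Mpo, which encodes myeloperoxidase, had overlapping libraries, at 4646 and 3682 against 3559 and 4158 CPM (log2 fold change -0.11 with edgeR adjusted p = 0.644). Ctsc lost its call, at edgeR adjusted p of 0.0818 to 0.118, on leaving out either CD115+Ly6C- library or, instead, CD115+Ly6C+ replicate 2. Ms4a3 lost its call, at edgeR adjusted p of 0.109 to 0.118, on leaving out CD115+Ly6C- replicate 1 or, instead, CD115+Ly6C+ replicate 2. Higher primary granule genes numbered 3 and 5 on leaving out replicate 1 and 2 of CD115+Ly6C-, and 6 and 3 on leaving out those of CD115+Ly6C+, and lower ones 0, 1, 0 and 1 by library left out.

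Later granule genes showed larger differences but rested on libraries that differed within CD115+Ly6C-. Of 16 secondary granule genes, 12 were higher and 0 lower (median 2.41). Of 26 gelatinase granule and mature neutrophil genes, 16 were higher and 0 lower (median 3.03, unchanged to 2 decimals with genes at 0 counts set to the floor). Ltf, which encodes lactoferrin, stood at 39.1 and 159.6 against 533 and 562 CPM (log2 fold change 2.46 with edgeR adjusted p = 0.0312), Camp, the cathelicidin gene, at 22.7 and 83.5 against 363 and 371 CPM (log2 fold change 2.79 with edgeR adjusted p = 0.0172), and Lcn2, which encodes lipocalin 2, at 1.89 and 13.4 against 72.7 and 41.3 CPM (log2 fold change 2.9 with edgeR adjusted p = 0.0371). In each of the 3 the second CD115+Ly6C- library lay between the first and both CD115+Ly6C+ libraries. Summed over the gelatinase list, the level was 1712 and 2116 CPM in CD115+Ly6C- against 4093 and 3969 CPM in CD115+Ly6C+. Summed over the secondary granule list it was 786 and 1436 CPM against 4223 and 4498 CPM.

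The median log2 ratio of the second to the first library was 1.38 for secondary and 0.99 for gelatinase genes within CD115+Ly6C-, but 0.08 and -0.05 within CD115+Ly6C+. Ly6g, the defining surface marker of mature neutrophils, stood at 0.0525 and 2.02 CPM in CD115+Ly6C- against 15.2 and 10.5 CPM in CD115+Ly6C+ and did not pass (log2 fold change 3.63 with SE 1.01, and edgeR adjusted p = 0.0576). Ly6g passed with the 4 CD115+ libraries alone (edgeR adjusted p = 0.0164), with no filter (0.000317), with limma on log2(FPKM + 1) (0.0165), without CD115+Ly6C- replicate 2 (0.0392) and without CD115-Ly6C- replicate 1 or replicate 2 (0.0208 and 0.0263). The part of admixed neutrophil RNA in the granule differences, and in those of S100a8 and S100a9, was not tested. Mmp8, neutrophil collagenase, stood at 10.1 and 32.5 against 142 and 150.1 CPM (log2 fold change 2.78 with edgeR adjusted p = 0.00749) and was robust, as were Cxcr2 and Trem3 above. Alox5, which starts leukotriene synthesis, was at 1.68 and 2.33 against 10.5 and 9.82 CPM (log2 fold change 2.34 with edgeR adjusted p = 0.00641). Ltf lost its call, at edgeR adjusted p of 0.0754 to 0.1, on leaving out CD115+Ly6C- replicate 1 or, instead, either CD115+Ly6C+ library. Camp lost its call, at edgeR adjusted p of 0.0518 to 0.0643, on leaving out either CD115+Ly6C+ library. Lcn2 lost its call, at edgeR adjusted p of 0.0764 to 0.135, on leaving out CD115+Ly6C- replicate 1 or, instead, either CD115+Ly6C+ library, and with the gene length trend removed, DESeq2 and a term for the replicate number (0.0536 to 0.0585). Alox5 lost its call, at edgeR adjusted p of 0.0549, on leaving out CD115+Ly6C- replicate 1. Higher secondary granule and gelatinase genes numbered 5 and 7 on leaving out replicate 1 of CD115+Ly6C-, 13 and 15 for its replicate 2, 5 and 5 for replicate 1 of CD115+Ly6C+ and 4 and 4 for its replicate 2.

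**Figure D5:**
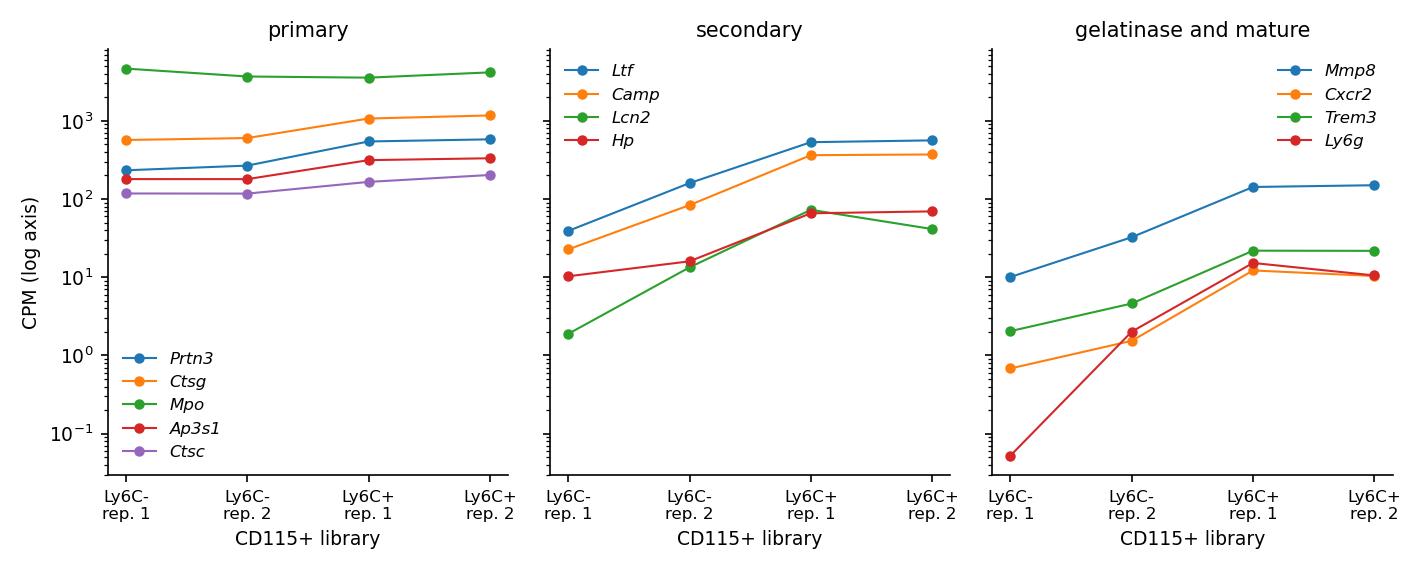
Granule genes by stage in the 4 CD115+ libraries, in CPM on a log axis, with a line joining the libraries of each gene in a fixed order. Each of the 5 primary granule genes plotted lies at a like level in both libraries of a subset, while the secondary and gelatinase genes lie higher in CD115+Ly6C- replicate 2 than in replicate 1 and higher again in both CD115+Ly6C+ libraries.

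Antimicrobial genes included several robust calls. Of 18 lysozyme, complement and antimicrobial genes, 7 were higher and 1 was lower. Lyz2, the lysozyme gene of macrophages and granulocytes, stood at 202 and 383 against 1180.3 and 1272 CPM (log2 fold change 2.07 with edgeR adjusted p = 0.00274), and its copy Lyz1, with which reads may be shared, at 8.55 and 15.3 against 49.7 and 58 CPM (log2 fold change 2.17 with edgeR adjusted p = 0.00255). Cfp, which encodes properdin and stabilizes the alternative complement convertase, was at 255 and 235 against 474 and 506 CPM (log2 fold change 1.0 with edgeR adjusted p = 0.00436). Ifitm6, a membrane protein gene of myeloid cells, was at 5.72 and 10.6 against 44.8 and 44.7 CPM (log2 fold change 2.45 with edgeR adjusted p = 0.00201). Hp, which encodes haptoglobin, stood at 10.3 and 16 against 65.7 and 69.5 CPM (log2 fold change 2.36 with edgeR adjusted p = 0.000895). Cybb, the catalytic chain of the phagocyte oxidase, was at 52.4 and 65.3 against 126 and 147 CPM (log2 fold change 1.21 with edgeR adjusted p = 0.00307), and its partner Cyba at 258 and 243 against 362 and 492 CPM (log2 fold change 0.77 with edgeR adjusted p = 0.0229). Of 14 oxidase and redox genes, 8 were higher, and 4 with the length trend removed. Cyba lost its call, at edgeR adjusted p of 0.107 to 0.126, on leaving out either CD115+Ly6C- library or, instead, CD115+Ly6C+ replicate 2, and with the gene length trend removed (0.149). By library left out, lower antimicrobial genes numbered 0, 0, 0 and 0. Higher antimicrobial and oxidase genes numbered 4 and 1 on leaving out replicate 1 of CD115+Ly6C-, 6 and 1 for its replicate 2, 6 and 4 for replicate 1 of CD115+Ly6C+ and 4 and 1 for its replicate 2.

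Among genes of antigen presentation by MHC class II, several were called higher and 1 inhibitor of peptide loading lower. Of 18 tested, 8 were higher and 1 was lower (median 0.69). H2-Ab1 stood at 12.5 and 12.6 against 36.5 and 48.4 CPM (log2 fold change 1.76 with edgeR adjusted p = 0.00207), H2-Aa at 5.3 and 6.1 against 17.2 and 17.5 CPM (log2 fold change 1.6 with edgeR adjusted p = 0.00358), and Cd74, the invariant chain that escorts class II molecules, at 19 and 19.2 against 51 and 77 CPM (log2 fold change 1.75 with edgeR adjusted p = 0.00241). H2-Ob, a chain of the protein that restrains peptide loading, fell from 74 and 73.7 CPM to 30.4 and 28 CPM (log2 fold change -1.34 with edgeR adjusted p = 0.000484). Marchf1, a ligase that removes class II molecules from the surface, was higher at 12.4 and 14.9 against 43.4 and 58.5 CPM (log2 fold change 1.9 with edgeR adjusted p = 0.00546). Itgax, which encodes the dendritic cell integrin CD11c, had overlapping libraries, at 24.9 and 29.7 against 30.0 and 24.6 CPM (log2 fold change 0.00 with edgeR adjusted p = 0.999). Marchf1 lost its call, at edgeR adjusted p of 0.0661, on leaving out CD115+Ly6C- replicate 1. Higher class II genes numbered 5 and 6 on leaving out replicate 1 and 2 of CD115+Ly6C-, and 7 and 6 on leaving out those of CD115+Ly6C+.

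Genes of dendritic cell types were called in both directions. Of 16 type 1 conventional dendritic cell genes 5 were higher and 0 lower, and of 17 type 2 genes 6 and 0. Of 27 plasmacytoid genes, 4 were higher and 9 lower. Among type 1 genes, Naaa, a lysosomal amidase, stood at 4.04 and 6.37 against 20.6 and 21.9 CPM (log2 fold change 2.03 with edgeR adjusted p = 0.00337). Cst3, which encodes cystatin C and is abundant in dendritic cells, stood at 910.4 and 972 against 1771 and 1896 CPM (log2 fold change 0.96 with edgeR adjusted p = 0.00274). Upb1, an enzyme of pyrimidine breakdown listed with plasmacytoid genes, went up from 29 and 27.6 CPM to 74.9 and 106 CPM (log2 fold change 1.67 with edgeR adjusted p = 0.00304). Against it stood Cox6a2, a cytochrome oxidase subunit of plasmacytoid cells, at 35.8 and 33.9 against 6.52 and 9.04 CPM (log2 fold change -2.16 with edgeR adjusted p = 0.000526), and Tlr7, the sensor of single-stranded RNA, at 17.4 and 17.6 against 3.9 and 2.87 CPM (log2 fold change -2.36 with edgeR adjusted p = 0.000609). Cox6a2 overlaps Itgad, with which reads may be shared. Higher type 1 and type 2 genes numbered 3 and 2 on leaving out replicate 1 of CD115+Ly6C-, 2 and 5 for its replicate 2, 3 and 5 for replicate 1 of CD115+Ly6C+ and 2 and 3 for its replicate 2. Lower plasmacytoid genes numbered 4 and 6 on leaving out replicate 1 and 2 of CD115+Ly6C-, and 7 and 5 on leaving out those of CD115+Ly6C+, and higher ones 1, 1, 2 and 1 by library left out.

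Early lymphoid genes had more lower than higher calls, and most of those calls did not rest on 1 library. Of 32 tested, 11 were lower and 1 was higher (median -0.66), against 4.34% of all genes called lower. Of the lower genes, 10 were robust. Ly6d, another member of the Ly6 family and a marker of B lineage commitment, stood at 88.9 and 78.7 against 22.7 and 24.7 CPM (log2 fold change -1.82 with edgeR adjusted p = 0.000358), so that members of this family ran in opposite directions. Arpp21, which marks early lymphoid cells, was at 10.3 and 10.7 against 1.51 and 1.14 CPM (log2 fold change -2.98 with edgeR adjusted p = 0.000358), and Cd27, a costimulatory receptor of multipotent and lymphoid progenitors, at 111 and 118 against 65.2 and 53.2 CPM (log2 fold change -0.95 with edgeR adjusted p = 0.00366). Cd52, a short surface glycoprotein, was the higher member, at 130.0 and 144 against 258 and 247 CPM (log2 fold change 0.88 with edgeR adjusted p = 0.00274).

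The Gimap genes, which encode GTPases of lymphocyte survival in 1 cluster, were lower in 5 of 8 (median -1.96). Gimap6 stood at 60.1 and 50.1 against 6.47 and 7.84 CPM (log2 fold change -2.95 with edgeR adjusted p = 0.000206), Gimap1 at 18.7 and 18 against 3.01 and 2.46 CPM (log2 fold change -2.74 with edgeR adjusted p = 0.000302), and Gimap9 at 31.6 and 26.4 against 6.8 and 7.07 CPM (log2 fold change -2.06 with edgeR adjusted p = 0.000468). The copies are alike, so the division of reads between them is uncertain. Lower calls among surface genes of lymphocytes included these. Cd72, an inhibitory receptor of B cells, was at 71.6 and 60.4 against 14.8 and 15.8 CPM (log2 fold change -2.11 with edgeR adjusted p = 0.000302) and Cd96, a receptor of T and NK cells, at 44.7 and 34.8 against 9.76 and 8.44 CPM (log2 fold change -2.13 with edgeR adjusted p = 0.000484). Sdc1, a proteoglycan best known from plasma cells, was at 72.7 and 95.4 against 34.6 and 36.3 CPM (log2 fold change -1.25 with edgeR adjusted p = 0.00251). Cd72 overlaps Tesk1, with which reads may be shared. Of the genes that define mature lymphocytes, Pax5 had no reads in the 4 libraries, and Cd3e stood at 0 and 0 against 0.0557 and 0 CPM.

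Genes of stem and multipotent progenitors were lower in 12 of 40 tested and higher in 3 (median -0.63, or -0.49 with genes at 0 counts set to the floor). Cd34, a sialomucin of progenitors, stood at 1112 and 967 against 604 and 554 CPM (log2 fold change -0.84 with edgeR adjusted p = 0.00398). Angpt1, a ligand of the receptor Tie2, was at 41.5 and 31.4 against 6.13 and 7.19 CPM (log2 fold change -2.45 with edgeR adjusted p = 0.000484), and Gcnt2, a glycosyltransferase, at 168 and 141 against 64.9 and 69.9 CPM (log2 fold change -1.2 with edgeR adjusted p = 0.00136). The adhesion receptor Adgrg1 stood at 154 and 186 against 67.7 and 57.3 CPM (log2 fold change -1.44 with edgeR adjusted p = 0.00207). Cd48, a signaling molecule that stem cells lack, went the other way, at 474 and 508 against 782 and 856 CPM (log2 fold change 0.74 with edgeR adjusted p = 0.00525). Cd48 lost its call, at edgeR adjusted p of 0.0531, on leaving out CD115+Ly6C- replicate 1. Lower progenitor genes numbered 7 and 9 on leaving out replicate 1 and 2 of CD115+Ly6C-, and 8 and 7 on leaving out those of CD115+Ly6C+, and higher ones 0, 1, 2 and 1 by library left out, or 1 with the length trend removed.

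Of 39 integrin and adhesion genes, 4 were higher and 5 lower, and the median of the list changed sign with library totals as scaling (0.00 and -0.07). Itga4, which holds progenitors to the marrow stroma, was lower at 84 and 82.9 against 39.8 and 37.5 CPM (log2 fold change -1.11 with edgeR adjusted p = 0.00133), and the tetraspanin gene Cd81 at 109 and 90.7 against 43.9 and 53.1 CPM (log2 fold change -1.04 with edgeR adjusted p = 0.00363). Itgb7 was higher at 279 and 292 against 515 and 556 CPM (log2 fold change 0.91 with edgeR adjusted p = 0.00661), as was Itgb2, the shared chain of leukocyte integrins, at 61.4 and 80.8 against 119 and 124 CPM (log2 fold change 0.77 with edgeR adjusted p = 0.0167). Itga4 overlaps Cerkl, with which reads may be shared. Of 45 actin and migration genes, 5 were higher and 1 was lower, with 2, 4, 2 and 3 higher by library left out and 3 with the length trend removed. Over all genes, 5.26% were called higher and 4.34% lower. Tmsb4x, which encodes the actin-binding thymosin beta 4, stood at 1702 and 1868 against 3053 and 3272 CPM (log2 fold change 0.83 with edgeR adjusted p = 0.00304), and Capg, a filament-capping protein, at 119 and 129.8 against 222 and 284 CPM (log2 fold change 1.03 with edgeR adjusted p = 0.00363). Emp1, an epithelial membrane protein, fell from 5.46 and 6.58 CPM to 0.557 and 1.08 CPM (log2 fold change -2.88 with edgeR adjusted p = 0.00207). Itgb7 lost its call, at edgeR adjusted p of 0.0663, on leaving out CD115+Ly6C- replicate 1. Itgb2 lost its call, at edgeR adjusted p of 0.0557 to 0.101, on leaving out CD115+Ly6C- replicate 1 or, instead, either CD115+Ly6C+ library. Higher and lower adhesion genes numbered 0 and 4 on leaving out replicate 1 of CD115+Ly6C-, 4 and 4 for its replicate 2, 3 and 4 for replicate 1 of CD115+Ly6C+ and 2 and 4 for its replicate 2.

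DNA replication genes and inhibitors of cyclin-dependent kinases were called in both directions. Of 52 DNA replication genes, 3 were higher and 3 lower, and of 50 mitosis genes 7 and 0 (medians -0.05 and 0.12), against 5.26% of all genes called higher and 4.34% lower. None of these calls was robust, and with the length trend removed 3 replication genes were higher and 0 lower, and 4 mitosis genes higher and 0 lower. Higher replication genes numbered 0, 0, 1 and 0, lower ones 0, 1, 0 and 0 and higher mitosis genes 0, 1, 1 and 1 by library left out. Mki67, a marker of dividing cells, stood at 383 and 279 against 351 and 311 CPM (log2 fold change 0.00 with SE 0.17, and edgeR adjusted p = 1). Cdkn2c, which encodes the inhibitor p18, was higher at 9.02 and 6.68 against 40.2 and 35.4 CPM (log2 fold change 2.27 with SE 0.23, and edgeR adjusted p = 0.00162). Cdkn1a, which encodes p21, was lower at 58.9 and 51.5 against 25.4 and 26.8 CPM (log2 fold change -1.08 with SE 0.15, and edgeR adjusted p = 0.00428). Both were robust, among 3 higher and 4 lower of 30 cell cycle control genes, which numbered 1, 1, 1 and 1 (higher) and 1, 4, 2 and 1 (lower), by library left out. Cdk6 and Ccnd2, a kinase and cyclin that act together early in the cycle, stood at 1290.0 and 950.1 against 686 and 613 CPM (log2 fold change -0.79 with edgeR adjusted p = 0.0199) and at 581 and 456 against 298 and 285 CPM (log2 fold change -0.83 with edgeR adjusted p = 0.0102). Cdk6 lost its call, at edgeR adjusted p of 0.0603 to 0.118, on leaving out CD115+Ly6C- replicate 1 or, instead, either CD115+Ly6C+ library, and with the gene length trend removed (0.0643). Ccnd2 lost its call, at edgeR adjusted p of 0.065 to 0.0677, on leaving out CD115+Ly6C- replicate 1 or, instead, CD115+Ly6C+ replicate 2.

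Calls among oxidative phosphorylation genes changed with the treatment of transcript length. Of 74 oxidative phosphorylation genes, 23 were higher and 0 lower (median 0.34), and with the length trend removed edgeR called 0 (median 0.01), with 6 higher at an unadjusted p under 0.05. Without that removal DESeq2 called 36 higher and limma 14. The higher count was 0 and 3 on leaving out replicate 1 and 2 of CD115+Ly6C-, and 1 and 0 on leaving out those of CD115+Ly6C+. Of 76 ribosomal protein genes, 1 was higher (0, 3, 0 and 0 by library left out), with medians of 0.36 and, with the trend removed, 0.03. G6pdx, the first enzyme of the pentose phosphate pathway and a source of NADPH, stood at 146 and 167 against 316 and 310.4 CPM (log2 fold change 1.0 with SE 0.12, and edgeR adjusted p = 0.00241) and was robust. Taldo1, a later enzyme of that pathway, was at 372 and 408 against 592 and 609 CPM (log2 fold change 0.62 with edgeR adjusted p = 0.0104), and Hk3, the hexokinase of myeloid cells, at 128 and 133 against 192 and 216 CPM (log2 fold change 0.64 with edgeR adjusted p = 0.018). Among 33 genes of glycolysis and this pathway, 7 were higher and 2 lower, and 6 and 1 with the trend removed. Higher ones numbered 2 and 3 on leaving out replicate 1 and 2 of CD115+Ly6C-, and 3 and 1 on leaving out those of CD115+Ly6C+, and lower ones 0, 1, 0 and 0 by library left out. Taldo1 lost its call, at edgeR adjusted p of 0.0619 to 0.0856, on leaving out CD115+Ly6C- replicate 1 or, instead, CD115+Ly6C+ replicate 2. Hk3 lost its call, at edgeR adjusted p of 0.0745 to 0.128, on leaving out either CD115+Ly6C- library or, instead, CD115+Ly6C+ replicate 2. G6pdx overlaps Ikbkg and Hk3 overlaps Unc5a, with which reads may be shared.

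Interferon-inducible genes were called in both directions. Of 63 tested, 10 were higher and 3 lower (median 0.12), against 5.26% of all genes called higher and 4.34% lower. Those higher included Slfn2, a regulator of leukocyte quiescence, at 28.6 and 43.9 against 99 and 125 CPM (log2 fold change 1.63 with edgeR adjusted p = 0.00546), and the DNA sensor family members Ifi211 at 8.13 and 9.55 against 35.3 and 45 CPM (log2 fold change 2.18 with edgeR adjusted p = 0.00366) and Ifi204 at 3.41 and 2.33 against 9.42 and 12.7 CPM (log2 fold change 1.94 with edgeR adjusted p = 0.0118). Igtp, a GTPase induced by interferon gamma, was lower at 64.2 and 58.5 against 38.1 and 44.3 CPM (log2 fold change -0.57 with edgeR adjusted p = 0.0343). Reads of the Ifi200 family and of the Slfn genes may be shared between copies. Ifi211 lost its call, at edgeR adjusted p of 0.0508, on leaving out CD115+Ly6C- replicate 1. Ifi204 lost its call, at edgeR adjusted p of 0.0592 to 0.079, on leaving out CD115+Ly6C- replicate 2 or, instead, CD115+Ly6C+ replicate 2. Igtp lost its call, at edgeR adjusted p of 0.0746 to 0.18, on leaving out any 1 of the 4 CD115+ libraries. Higher members numbered 3 and 5 on leaving out replicate 1 and 2 of CD115+Ly6C-, and 5 and 3 on leaving out those of CD115+Ly6C+, and lower ones 1, 0, 1 and 0 by library left out.

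Markers of cells outside the sorted progenitors gave the levels below, where 5.26% of all genes were called higher and 4.34% lower. Of 17 T and NK cell genes tested, 1 was higher and 4 lower (higher 0, 2, 1 and 0, and lower 0, 1, 0 and 2, by library left out), and the list summed to 130.0 and 119 against 109.8 and 122 CPM. Cd7, which early lymphoid and plasmacytoid cells also carry, accounted for the higher call at 28 and 33.1 against 57.9 and 68.7 CPM (log2 fold change 1.05 with edgeR adjusted p = 0.0112), while the defining gene Ncr1 stood at 0 and 0.159 against 0.557 and 0 CPM. Of 9 B and plasma cell genes, 1 was lower, which was Sdc1, and 0 were called higher. Of the 9, 8 had a log2 fold change above 0 (median 0.47), with 3 higher at an unadjusted edgeR p under 0.05. Erythroid genes summed to 571 and 539 against 526 and 516 CPM, with 1 of 14 lower (0, 1, 1 and 0 by library left out). The globin gene Hba-a1 stood at 6.24 and 2.28 against 2.73 and 6.11 CPM. Of 13 megakaryocyte genes 3 were higher and 2 lower, and by library left out these numbered 0, 0, 3 and 0 (higher) and 0, 2, 2 and 0 (lower). Pf4, the platelet factor, stood at 0 and 0.0531 against 0.836 and 3.29 CPM and was called higher (edgeR adjusted p = 0.0221). Pf4 lost its call, at edgeR adjusted p of 0.0803 to 0.158, on leaving out either CD115+Ly6C- library or, instead, CD115+Ly6C+ replicate 2. Of 19 basophil, mast cell and eosinophil genes, 1 was higher and 1 was lower (higher 0, 1, 0 and 0, and lower 0, 1, 1 and 1, by library left out). None of the 5 stromal and endothelial genes tested was called by edgeR, DESeq2 or limma, with 2 lower at an unadjusted p under 0.05 in edgeR, and their list summed to 15.4 and 19.6 against 14 and 10.7 CPM, with no reads of Col1a2. The part of these cells in the other differences was not tested. Cd7 lost its call, at edgeR adjusted p of 0.0654 to 0.101, on leaving out CD115+Ly6C- replicate 1 or, instead, CD115+Ly6C+ replicate 2.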

How the data were processed

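Polyadenylated RNA of 6 sorted libraries, 2 per CDP subset, was sequenced. Per the submitters' processing notes, the authors aligned reads to mm10 with Bowtie2 and quantified them with RSEM. Their versions, the annotation and the strand setting were not given in the sources used here. Per the file headers, the deposited tables hold RSEM's expected counts and FPKM values per gene. A gene missing from a library's table was taken as 0. Of the expected counts above 0, 12.6% were not whole (tolerance 1e-06), and all were rounded. Of 16135 genes listed in any library, 778 carry numbers in place of names, and 15332 of 15357 Entrez identifiers matched RefSeq GRCm38.p6. No molecular identifiers are named, so a low count may be limited by more than counting error. The number of columns with values of samples other than these was 0.

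Counts were fitted with edgeR 4.0.16 in R 4.3.3 by its quasi-likelihood test, with TMM scaling and its filter on low counts (minimum count 10, total 15). All 6 libraries gave the spread (3 residual degrees of freedom, 5.65 prior, biological coefficient of variation 15.2%), and p-values were adjusted by Benjamini-Hochberg over 12127 genes. CPM uses TMM-scaled totals. Alternatives were other scalings, no filter, DESeq2 1.42.0, limma 3.58.1 on log2(FPKM + 1), the 4 CD115+ libraries alone, a term for the replicate number, a length trend removed per library (lowess span 0.3), and each library left out. The edgeR fit was also run on simulated data with the same dispersion for every gene. That simulation had no trend with transcript length and no shift between libraries of a subset. It therefore does not measure the error rate in the real libraries.

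The comparison, the gene lists and the genes named were chosen with earlier results of these data known. Named genes are the sort markers, a set list of regulators, up to 10 called members per list by adjusted p, and the 20 largest changes in each direction with at least 5 FPKM, of which the text gives a part. Cd14, Cd27, Col1a2, F13a1, Fn1, Hba-a1, Ltf, Ms4a4c and Ms4a6d fall outside this rule and were chosen after their values were seen.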

Additional observations from a re-analysis of the deposited data

How the results depend on the processing

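Against 638 higher and 526 lower genes, 986 and 824 were called with no filter on low counts, 1024 and 788 with DESeq2, and 405 and 306 with the length trend removed. The limma fit of log2(FPKM + 1) called 576 and 557, of which 99 were lower by at least 2-fold against 211. RLE scaling gave 663 and 512, library totals 485 and 777, and the 4 CD115+ libraries alone 711 and 491. With 1 library left out, higher genes numbered 105 to 648 and lower genes 115 to 491, and at least 2-fold 83 to 305 and 91 to 200. The lowest 4 values come from leaving out CD115+Ly6C- replicate 1, where the lone library of its subset is assumed to vary like the others. Of 167 genes named and tested, 50 lost their calls in that fit, 20 on leaving out its replicate 2, and 24 and 43 on leaving out replicate 1 and 2 of CD115+Ly6C+. The 167 include genes not called in the main fit, such as Irf8 and Csf1r, which had no call to lose, and leave out S100a8 and S100a9. Called genes named in the text kept their direction in the alternatives run. The cause of these shifts was not tested. Fits with 1 library in a subset leave few degrees of freedom, so a lost call there does not show that a gene did not differ. Levels near 0.05 CPM are single counts. In groups with 0 edgeR calls in a direction, 0 to 3 members had an unadjusted p under 0.05 in that direction, and there DESeq2 called 2 lower type 1 dendritic cell genes, 1 lower Bcl2 family gene and 2 lower iron and heme genes, and limma 1 higher erythroid gene and 1 lower iron and heme gene.

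The replicate numbers were not treated as pairing the libraries, although some genes named under other observations differ by number in the same direction in each subset. Deviations of same-numbered libraries from their subset means correlated at -0.004 between the CD115+ subsets, and at -0.01 and 0.15 with CD115-Ly6C-. With a replicate block, 542 genes were higher and 423 lower, 258 and 196 of them by at least 2-fold, and 4 of the named genes lost their calls.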

Other observations

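The groups in this paragraph are to be set beside 5.26% of all genes called higher in CD115+Ly6C+ and 4.34% lower. Genes of lipid mediators were called in both directions: 4 of 22 leukotriene and prostaglandin genes were higher in CD115+Ly6C+ and 2 lower. None of these calls was robust, and by library left out, in the order given above, they numbered 0, 2, 1 and 2 (higher) and 0, 1, 1 and 0 (lower). Hpgd, which degrades prostaglandins, stood at 0.525 and 0.690 CPM in CD115+Ly6C- against 6.8 and 4.97 CPM in CD115+Ly6C+ (log2 fold change 3.26 with edgeR adjusted p = 0.00668), and Ptger3, a receptor for prostaglandin E2, at 6.66 and 5.25 against 2.29 and 1.98 CPM (log2 fold change -1.48 with edgeR adjusted p = 0.0138). Ltb4r1, the receptor for leukotriene B4, stood at 8.45 and 8.01 against 17.7 and 14.6 CPM (log2 fold change 0.97 with edgeR adjusted p = 0.022). Hpgd lost its call, at edgeR adjusted p of 0.0562 to 0.0618, on leaving out CD115+Ly6C- replicate 1 or, instead, CD115+Ly6C+ replicate 1. Ptger3 lost its call, at edgeR adjusted p of 0.0741 to 0.0856, on leaving out CD115+Ly6C- replicate 1 or, instead, CD115+Ly6C+ replicate 2. Ltb4r1 lost its call, at edgeR adjusted p of 0.0516 to 0.113, on leaving out any 1 of the 4 CD115+ libraries. Of 25 Notch pathway genes, 0 were higher and 2 lower (1, 2, 2 and 0 lower by library left out). Dtx4, a ubiquitin ligase of that pathway, stood at 61.7 and 66.5 against 36.7 and 34.3 CPM (log2 fold change -0.85 with edgeR adjusted p = 0.00668), and Maml2, a coactivator of Notch, at 17.9 and 12.7 against 6.58 and 6.65 CPM (log2 fold change -1.21 with edgeR adjusted p = 0.0179). Dtx4 lost its call, at edgeR adjusted p of 0.0501, on leaving out CD115+Ly6C+ replicate 2. Maml2 lost its call, at edgeR adjusted p of 0.0731 to 0.118, on leaving out CD115+Ly6C- replicate 1 or, instead, either CD115+Ly6C+ library. Of 59 lysosome genes, 12 were higher and 1 was lower. By library left out they numbered 1, 4, 7 and 1 (higher) and 0, 0, 0 and 0 (lower), and with the length trend removed 8 and 0. Grn, which encodes progranulin, stood at 323 and 419.7 against 657 and 601 CPM (log2 fold change 0.76 with edgeR adjusted p = 0.0143), and Lamp1, a lysosomal membrane protein, at 449 and 501 against 683 and 752 CPM (log2 fold change 0.60 with edgeR adjusted p = 0.018). Grn lost its call, at edgeR adjusted p of 0.051 to 0.0859, on leaving out CD115+Ly6C- replicate 1 or, instead, either CD115+Ly6C+ library. Lamp1 lost its call, at edgeR adjusted p of 0.0517 to 0.132, on leaving out either CD115+Ly6C- library or, instead, CD115+Ly6C+ replicate 2. Of 13 macrophage genes, 5 were higher, and 1, 2, 2 and 1 by library left out. Among them Trem2, a lipid receptor, stood at 0.105 and 0.212 against 4.35 and 4.25 CPM (log2 fold change 4.71 with edgeR adjusted p = 0.0155), and Axl, a receptor for dying cells, at 0.944 and 2.23 against 9.2 and 7.37 CPM (log2 fold change 2.38 with edgeR adjusted p = 0.0207). Trem2 lost its call, at edgeR adjusted p of 0.0663 to 0.121, on leaving out any 1 of the 4 CD115+ libraries. Axl lost its call, at edgeR adjusted p of 0.0682 to 0.122, on leaving out CD115+Ly6C- replicate 1 or, instead, either CD115+Ly6C+ library.

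Some genes differed more between replicate numbers than between the CD115+ subsets, and they were chosen after their values were seen. Fos, an immediate early gene, stood at 489 and 1267 CPM in CD115+Ly6C-, 539 and 1148 CPM in CD115+Ly6C+ and 878 and 1887 CPM in CD115-Ly6C-. Egr1, another such gene, stood at 29.2 and 90.7 CPM, 28 and 71.3 CPM and 69.5 and 193 CPM in the same order, and Nr4a1 at 15.9 and 43.8 CPM, 6.58 and 20.7 CPM and 43.2 and 119 CPM. Prg2, a granule protein gene of eosinophils, stood at 0.0525 and 19.8 CPM, 1.45 and 30.0 CPM and 0.805 and 5.12 CPM. In each of these 4 genes replicate 2 lay above replicate 1 in the 3 subsets, and none was called between the CD115+ subsets (edgeR adjusted p 0.955, 0.81, 0.29 and 0.811). Nr4a1 passed in 1 of the alternatives run, the fit with a term for the replicate number (log2 fold change -1.13 without that term). The cause was not tested.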
